A study of Rattus norvegicus with 12 samples.

Results

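The microglia and macrophage genes of the rat striatum were measured by RNA sequencing in 12 rats after methamphetamine (MA) self-administration. Of 44 listed symbols, 42 had a row among the 17337 genes of the count table, and Dock2 and Pik3cg were not analysed here. The rats were adult male Sprague–Dawley animals, labelled wild type, given 16 days of MA self-administration, in which a lever press delivers the drug, and 1 library was made from the whole striatum of each. The MA12 group (n = 4) was taken 12 h and the MA24 group (n = 4) 24 h after the last session, while the third group (n = 4) carries the label non-addicted after the same 16 days. How these rats were judged non-addicted and how long after the last session they were taken are not given in the sources used here, and the methods of the study do not describe this group, so its history rests on the labels. By these labels all 12 rats had MA as their treatment, and the design text lists the non-addicted rats apart from a saline group and a group with MA self-administration alone, which were not analysed here. The rat numbers end in N for 2 of the 4 MA12 rats, for all 4 MA24 rats and for no non-addicted rat, and the meaning of the N is not given.

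Microglia are the resident macrophages of the brain parenchyma. They arise from yolk sac precursors, depend on signalling through the CSF1 receptor and on the transcription factor PU.1, and survey the tissue with receptors for nucleotides and for the neuronal chemokine fractalkine. They take up debris and synaptic material, make the C1q complex that starts the classical complement pathway, and release cytokines such as interleukin-1β when activated. Macrophages of the meninges and of the spaces around vessels share many of these genes and carry in addition the mannose receptor and the haemoglobin scavenger receptor CD163. Striatal microglia have been studied in MA research because high doses of the drug are followed by changes in their shape and number.

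The promoters of these genes are shown first, because most of those matched hold a sequence feature that the choice of genes did not use. RefSeq windows on the GRCr8 build, from 250 bases before to 50 after the gene start, were matched for 29 of the 42 genes. They were searched on both strands for GAGGAA and GGAAGT, forms of the purine-rich core that PU.1 and other ETS factors bind, for GAGGAAGT, which holds both, and for the composite element that ETS and interferon regulatory factors bind together. GAGGAA was found in 21 of 29 windows (72.4%), against 27.6% of 33469 windows of all genes. GGAAGT was in 16 (55.2%, against 22.6%), GAGGAAGT in 5 (17.2%, against 2.42%) and the composite element in 2 (6.9%, against 2.94%). The 5 windows with GAGGAAGT belong to Cd53, Cd37, Ctss, Inpp5d and Vav1. The windows of P2ry13, Irf8, Il1b, Cd163 and Apbb1ip held none of these motifs, while the windows printed next all hold matches. The 250 bases before the start of 4 genes of different roles are printed 5′ to 3′ on the strand of the gene, with both motifs and their reverse complements in capitals.
C1qa, chr5:154419934-154420183, minus strand: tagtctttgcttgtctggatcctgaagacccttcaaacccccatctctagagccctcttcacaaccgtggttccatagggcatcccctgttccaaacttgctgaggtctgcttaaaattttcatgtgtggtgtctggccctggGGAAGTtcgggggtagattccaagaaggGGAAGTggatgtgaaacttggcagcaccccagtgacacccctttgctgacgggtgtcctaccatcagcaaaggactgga
Itgam, chr1:192089342-192089591, plus strand: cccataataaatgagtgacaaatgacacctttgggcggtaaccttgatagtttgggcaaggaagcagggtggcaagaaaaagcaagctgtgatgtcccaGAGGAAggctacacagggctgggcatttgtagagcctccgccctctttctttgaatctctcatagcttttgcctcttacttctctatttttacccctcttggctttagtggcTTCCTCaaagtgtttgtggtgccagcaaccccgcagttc
Cd68, chr10:54882442-54882691, minus strand: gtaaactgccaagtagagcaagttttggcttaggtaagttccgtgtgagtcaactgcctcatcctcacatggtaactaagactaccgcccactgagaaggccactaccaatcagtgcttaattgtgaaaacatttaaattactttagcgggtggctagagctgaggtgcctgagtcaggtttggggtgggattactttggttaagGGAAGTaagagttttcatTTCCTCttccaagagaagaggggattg
Tlr2, chr2:171504558-171504807, minus strand: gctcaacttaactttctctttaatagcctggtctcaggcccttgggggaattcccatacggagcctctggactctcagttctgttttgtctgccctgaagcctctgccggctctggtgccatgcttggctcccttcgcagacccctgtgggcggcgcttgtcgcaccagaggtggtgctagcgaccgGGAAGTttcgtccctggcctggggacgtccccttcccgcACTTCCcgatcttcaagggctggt
The C1qa window holds GGAAGT at 107 and 79 bases before the start, and the Itgam window holds GAGGAA at 151 and, on the opposite strand, at 39 bases. In the Cd68 window, GGAAGT at 45 bases and GAGGAA on the opposite strand at 27 bases lie close together. The Tlr2 window holds GGAAGT at 63 and, on the opposite strand, at 24 bases. A match of letters is not evidence of a bound site.

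Each library held between 17908962 and 23850284 counts, and the 42 genes together took 0.0693% to 0.101% of them. The 6 genes that best mark microglia, Cx3cr1, P2ry12, Tmem119, Csf1r, C1qa and Aif1, had at least 237 counts in every library, so the signal of the cell type was present in all 12 rats. Of the 42 genes, 38 had a mean count above 4 and entered every test, and the other 4 were the cytokines Il1b and Tnf and the chemokines Ccl2 and Ccl3. Levels are CPM, counts scaled to the size of each library by the trimmed mean of M-values (TMM) and not divided by transcript length. Differences are log2 fold changes from the edgeR quasi-likelihood test with Benjamini-Hochberg adjusted p-values over all genes tested. A DEG had an adjusted p below 0.05 and a fold change of at least 1.5. In bulk tissue, fewer cells of a type and less RNA of a gene per cell cannot be told apart.

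No microglia or macrophage gene was a DEG in any of the 3 comparisons. In MA24 vs. MA12, 0 of 38 were DEGs, where 2.45% of 10754 genes tested were. In non-addicted vs. MA12 the count was 0 of 38, with 0.251% of all genes, and in non-addicted vs. MA24 it was also 0 of 38, with 0.456% of all genes. At an unadjusted p below 0.05, 6 genes passed in MA24 vs. MA12 (4 higher and 2 lower in MA24), which is 15.8% of them against 23.6% of all genes, of which 10.5% were higher and 13.1% lower. Only 2 passed in the fit with a term for the N in the rat number. In non-addicted vs. MA12, 4 passed, all lower in the non-addicted rats (10.5% against 12.3%, or 7.03% of all genes in that direction). In non-addicted vs. MA24, 9 passed, again all lower in the non-addicted rats (23.7% against 17.5%, or 8.16% of all genes in that direction). DESeq2 and the edgeR likelihood ratio test each gave 0, 1 and 0 DEGs in the 3 comparisons, the 1 being Cx3cr1. A test across the 3 groups found 0 of 38 genes at an adjusted p below 0.05 (2.79% of all genes), and 8 of 38 (21.1%) at an unadjusted p below 0.05, against 24.2% of all genes. The comparisons share rats, so their results are not independent.

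The levels leaned to one side where the non-addicted rats were compared. The log2 fold change was below 0 for 30 of 38 genes in non-addicted vs. MA12 (52.3% of all genes), with a median of -0.12 beside -0.012 over all genes tested. It was below 0 for 30 of 38 in non-addicted vs. MA24 (49.7% of all genes), with a median of -0.18 beside 0.0031. In MA24 vs. MA12 it was below 0 for 19 of 38 (51.7% of all genes), with a median of -0.0047 beside -0.016. The lean was smaller without 1 animal, non-addicted rat 9, which had the lowest level of the 12 rats for 15 of the 38 genes and lay below the 12-rat mean for 33. Without rat 9, the median was -0.068 and 24 genes were below 0 in non-addicted vs. MA12, and the median was -0.13 with 26 below 0 in non-addicted vs. MA24. The number of genes at an unadjusted p below 0.05 then fell to 2 in the former and to 6 in the latter comparison. It also moved with other rats, to 7 without MA12 rat 7N and 2 without MA12 rat 4N in the former comparison, and to 14 without MA24 rat 14N and 5 without MA24 rat 16N in the latter.

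**Figure D1:**
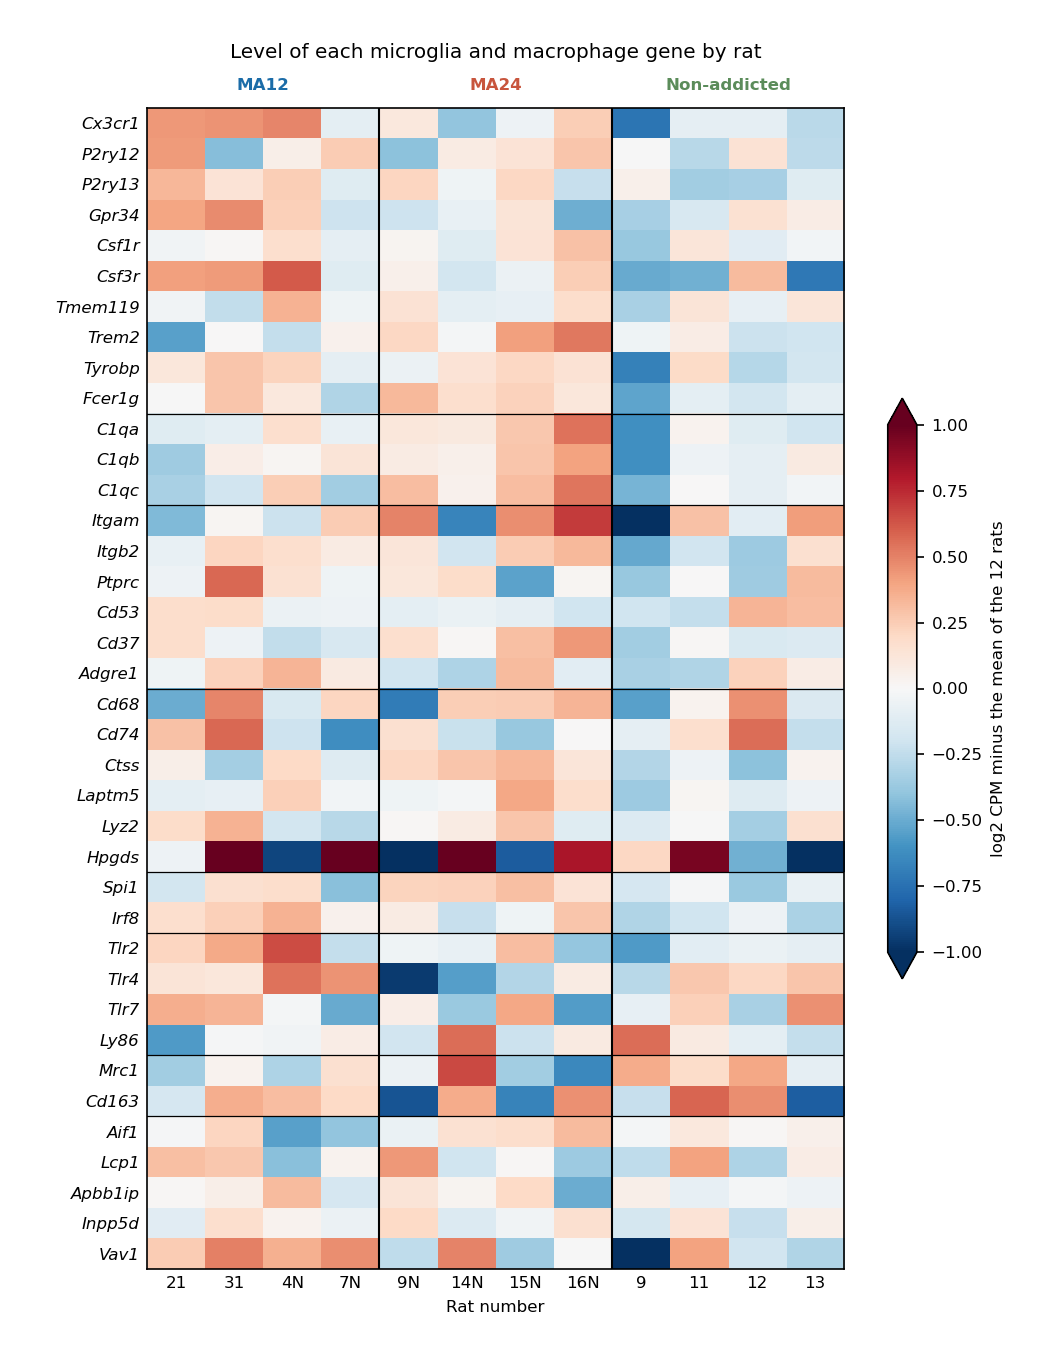
Level of each of the 38 tested genes (rows, grouped by role with lines between roles) in each of the 12 rats (columns, by group), as log2 CPM minus the mean of the 12 rats, red above and blue below the mean, with colours ending at 1 in either direction. The column of non-addicted rat 9 is blue in 33 of 38 rows, and the row of Hpgds, with 1 to 34 counts per library, alternates between the ends of the scale.

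The summed level of all 42 genes was 890 ± 63.5 CPM (SD, n = 4) in MA12, 978 ± 57.4 CPM in MA24 and 807 ± 92.7 CPM in the non-addicted rats. By rat, in the order used throughout (MA12 rats 21, 31, 4N and 7N, MA24 rats 9N, 14N, 15N and 16N, non-addicted rats 9, 11, 12 and 13), the sums were 883, 872, 978.5 and 828 CPM in MA12, then 950.3, 911, 1023 and 1028 CPM in MA24, then 687, 888, 780.3 and 872 CPM in the non-addicted rats. The MA24 rats lay above all non-addicted rats, and the MA12 rats overlapped both other groups. The sum is mostly a few genes, with Ctss giving 23.7% of it, Ctss and Csf1r 38.2%, and these with C1qa 48.0%.

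The genes of the complement C1q complex had higher levels in MA24 than in the non-addicted rats, but none passed the thresholds of a DEG. C1qa, C1qb and C1qc encode the 3 chains of the recognition molecule that binds immune complexes and tagged synapses. C1qa lay at 78.9, 80.1, 96.3 and 81.5 CPM in MA12, at 92.8, 91.9, 103 and 125 CPM in MA24, and at 56.1, 87.7, 78.6 and 74.6 CPM in the non-addicted rats. All MA24 rats lay above all non-addicted rats, while MA12 rat 4N lay within the MA24 range. C1qc lay at 29.5, 32.2, 43.7 and 29.0 CPM in MA12, at 45.5, 38.0, 45.6 and 53.3 CPM in MA24, and at 26.7, 36.9, 34.6 and 36.2 CPM in the non-addicted rats. The MA24 rats again lay above all non-addicted rats, with a gap of about 1 CPM between rat 14N and rat 11. C1qb lay at 33.8, 45.5, 44.0 and 47.3 CPM in MA12, at 45.8, 44.9, 52.5 and 57.2 CPM in MA24, and at 28.3, 41.9, 40.7 and 46.0 CPM in the non-addicted rats. Here the groups overlapped, since rat 13 lay above rats 9N and 14N. In non-addicted vs. MA24, the log2 fold change was -0.48 (SE 0.13, adjusted p = 0.0907) for C1qa, -0.45 (SE 0.12, adjusted p = 0.1) for C1qc and -0.36 (SE 0.13, adjusted p = 0.189) for C1qb by the edgeR quasi-likelihood test. In MA24 vs. MA12, it was 0.44 for C1qc (SE 0.13, adjusted p = 0.0583), 0.29 for C1qa (SE 0.11, adjusted p = 0.123) and 0.23 for C1qb (SE 0.12, adjusted p = 0.24) by the same test. In non-addicted vs. MA12, the differences were -0.19, -0.0032 and -0.12 for C1qa, C1qc and C1qb. C1qc became a DEG in MA24 vs. MA12 when MA12 rat 4N was left out (log2 fold change 0.59, adjusted p = 0.0121), and its adjusted p ran from 0.0121 to 0.353 over all alternative fits of that comparison, the highest in the fit with a term for the N in the rat number (log2 fold change 0.32).

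**Figure D2:**
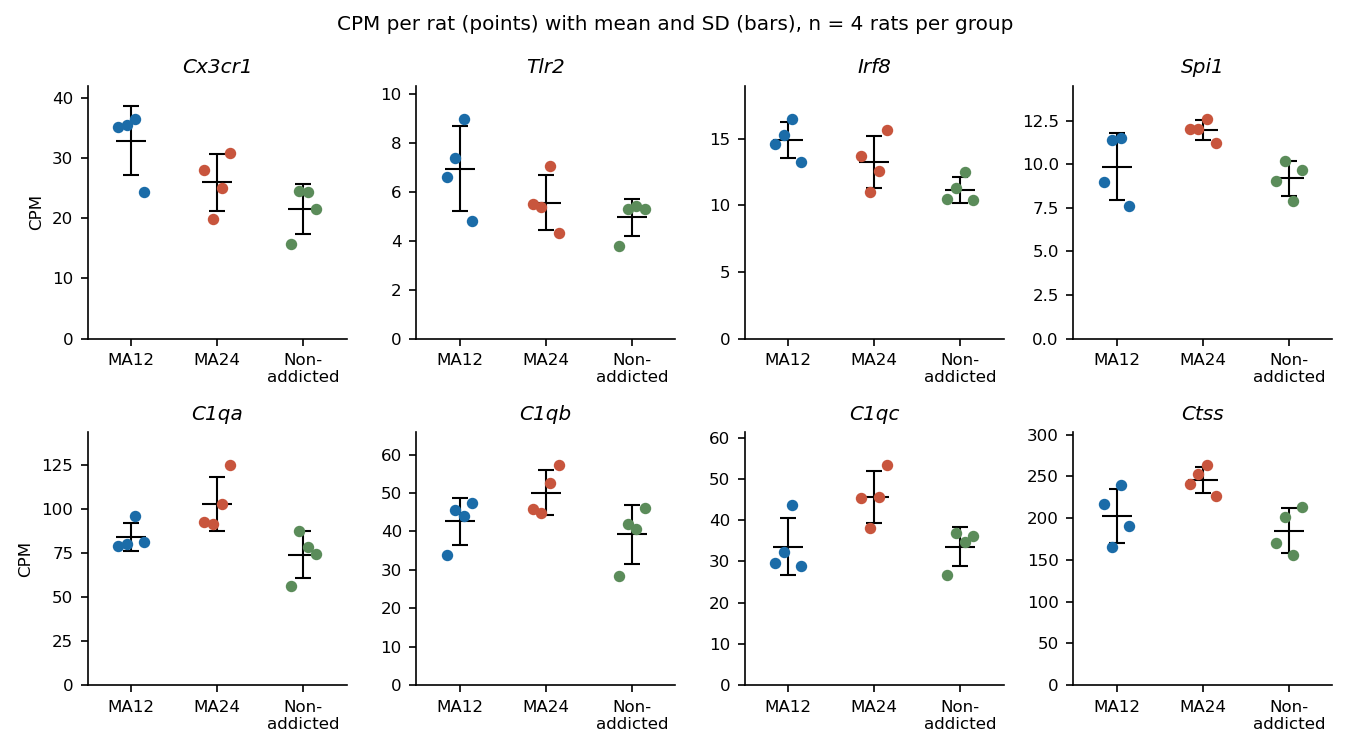
Level in CPM (vertical axes, from 0) of 8 genes in each rat, with points for rats, the horizontal bar for the group mean and whiskers for the SD (n = 4 per group). C1qa, C1qc, Ctss and Spi1 show no overlap between MA24 and non-addicted rats, and Irf8 shows none between MA12 and non-addicted rats, while the single low MA12 point of Cx3cr1 is rat 7N.

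The 10 receptors and adaptors of resident microglia did not share 1 order of the groups. Cx3cr1, the receptor for fractalkine, lay at 35.2, 35.5, 36.5 and 24.3 CPM in MA12, at 28.0, 19.8, 25.1 and 30.9 CPM in MA24, and at 15.7, 24.5, 24.4 and 21.6 CPM in the non-addicted rats. Rats 21, 31 and 4N lay above all other rats, and rat 7N, the library with the fewest counts, lay within the range of the other groups. The log2 fold change in non-addicted vs. MA12 was -0.62 (SE 0.15, 95% interval -0.93 to -0.31, unadjusted p = 5.45e-04, adjusted p = 0.0798, edgeR quasi-likelihood test), the smallest unadjusted p of any gene of the list. Cx3cr1 was a DEG when rat 7N was left out (-0.71, adjusted p = 0.0136) and between rats numbered without N alone (-0.70, adjusted p = 0.0319). The latter fit holds only rats 21 and 31 of MA12, so it also leaves out rat 7N. Over all alternative fits its adjusted p ran from 0.0134 to 0.223, and without non-addicted rat 9 the log2 fold change was -0.48 (adjusted p = 0.169). The Cx3cr1 difference of MA24 from MA12 was smaller on the log2 scale, at -0.34 (SE 0.14, adjusted p = 0.158), and non-addicted vs. MA24 gave -0.27 (adjusted p = 0.35).

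Gpr34, a receptor for lysophosphatidylserine, was at 17.6 ± 3.45 CPM in MA12, 13.4 ± 2.37 CPM in MA24 and 14.3 ± 2.15 CPM in the non-addicted rats, with a log2 fold change of -0.39 in MA24 vs. MA12 (adjusted p = 0.149). Csf3r, the receptor for granulocyte colony-stimulating factor, which neutrophils also carry, was at 4.90 ± 1.0, 3.87 ± 0.506 and 3.10 ± 1.12 CPM in the same order, with -0.66 in non-addicted vs. MA12 (SE 0.27, adjusted p = 0.321). Trem2, the lipid receptor that activates phagocytosis, had its highest mean in MA24, at 11.8 ± 2.13 CPM in MA12, 16.3 ± 2.66 CPM in MA24 and 12.4 ± 1.22 CPM in the non-addicted rats. Its log2 fold change was 0.46 in MA24 vs. MA12 (SE 0.16, adjusted p = 0.0939) and -0.39 in non-addicted vs. MA24 (SE 0.15, adjusted p = 0.192). Fcer1g and Tyrobp encode adaptors that carry the signals of Fc receptors and of TREM2. Fcer1g lay at 13.8, 16.8, 14.9 and 11.2 CPM in MA12, at 17.3, 15.5, 16.2 and 14.9 CPM in MA24, and at 9.53, 12.9, 12.1 and 12.9 CPM in the non-addicted rats. The MA24 rats lay above all non-addicted rats, with a log2 fold change of -0.44 in non-addicted vs. MA24 (SE 0.14, adjusted p = 0.137). Tyrobp was at 13.1 ± 1.44, 12.9 ± 0.987 and 10.3 ± 2.57 CPM, with rat 9 lowest. The purinergic receptors P2ry12 and P2ry13, the CSF1 receptor Csf1r and the microglial membrane protein Tmem119 had unadjusted p-values above 0.05 in all 3 comparisons. Their log2 fold changes lay between -0.35 and 0.074, and Tmem119 was at 41.9 ± 7.50, 42.4 ± 4.23 and 40.5 ± 5.85 CPM.

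Of the 6 genes of the lysosome, antigen handling and enzymes, Ctss alone had groups that did not overlap, and only in non-addicted vs. MA24. In that comparison, 10% of all genes tested did not overlap, and 4.9% were lower without overlap in the non-addicted rats. Ctss encodes cathepsin S, a protease that microglia secrete and that releases fractalkine from neurons. Ctss lay at 217, 165, 239 and 190 CPM in MA12, at 241, 253, 263 and 226 CPM in MA24, and at 170, 201, 156 and 213 CPM in the non-addicted rats. All MA24 rats lay above all non-addicted rats, and 1 MA12 rat, 4N, lay within the MA24 range. The log2 fold change was -0.41 in non-addicted vs. MA24 (SE 0.11, 95% interval -0.64 to -0.19, adjusted p = 0.0804) and 0.28 in MA24 vs. MA12 (SE 0.11, adjusted p = 0.138), both by the edgeR quasi-likelihood test. Laptm5, a lysosomal membrane protein, was at 38.0 ± 4.35, 41.4 ± 5.89 and 34.5 ± 3.86 CPM, with -0.26 in non-addicted vs. MA24 (adjusted p = 0.259). Cd68, a lysosomal glycoprotein often used as a sign of phagocytic activity, had 18, 38, 21 and 23 counts in MA12, 15, 27, 26 and 27 in MA24, and 14, 23, 38 and 19 in the non-addicted rats. These groups overlapped in all comparisons, and the 95% interval of its log2 fold change in MA24 vs. MA12 ran from -0.88 to 0.93. The invariant chain Cd74, the lysozyme Lyz2 and the prostaglandin D synthase Hpgds had unadjusted p-values above 0.05 in all 3 comparisons.

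Neither of the 2 transcription factors of the list was a DEG, and each had groups without overlap in 1 comparison. Spi1 encodes PU.1, on which the macrophage lineage depends. It lay at 8.96, 11.4, 11.5 and 7.62 CPM in MA12, at 12.0, 12.0, 12.6 and 11.2 CPM in MA24, and at 9.06, 10.2, 7.87 and 9.68 CPM in the non-addicted rats. The MA24 rats lay above all non-addicted rats, with a log2 fold change of -0.39 (SE 0.15, adjusted p = 0.205), and the MA12 rats spread over both ranges. Irf8, an interferon regulatory factor that pairs with PU.1, lay at 14.6, 15.3, 16.5 and 13.3 CPM in MA12, at 13.7, 11.0, 12.6 and 15.7 CPM in MA24, and at 10.5, 11.3, 12.5 and 10.4 CPM in the non-addicted rats. Here the MA12 rats lay above all non-addicted rats, with a log2 fold change of -0.42 (SE 0.13, adjusted p = 0.18). Of all genes tested, 4.9% were lower without overlap in non-addicted vs. MA24, and 3.6% in non-addicted vs. MA12.

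In total, the groups did not overlap for 5 of 38 genes in non-addicted vs. MA24 (Fcer1g, C1qa, C1qc, Ctss and Spi1), all lower in the non-addicted rats, where 10% of all genes tested did not overlap and 4.9% were lower without overlap. In non-addicted vs. MA12 this held for 1 of 38 (Irf8, lower, against 7.1% of all genes, or 3.6% lower), and in MA24 vs. MA12 for 2 of 38 (Cd53 and Tlr4, both lower in MA24, against 15.6% of all genes, or 8.4% lower). The share was above that of all genes in non-addicted vs. MA24 and below it in the other comparisons.

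**Figure D3:**
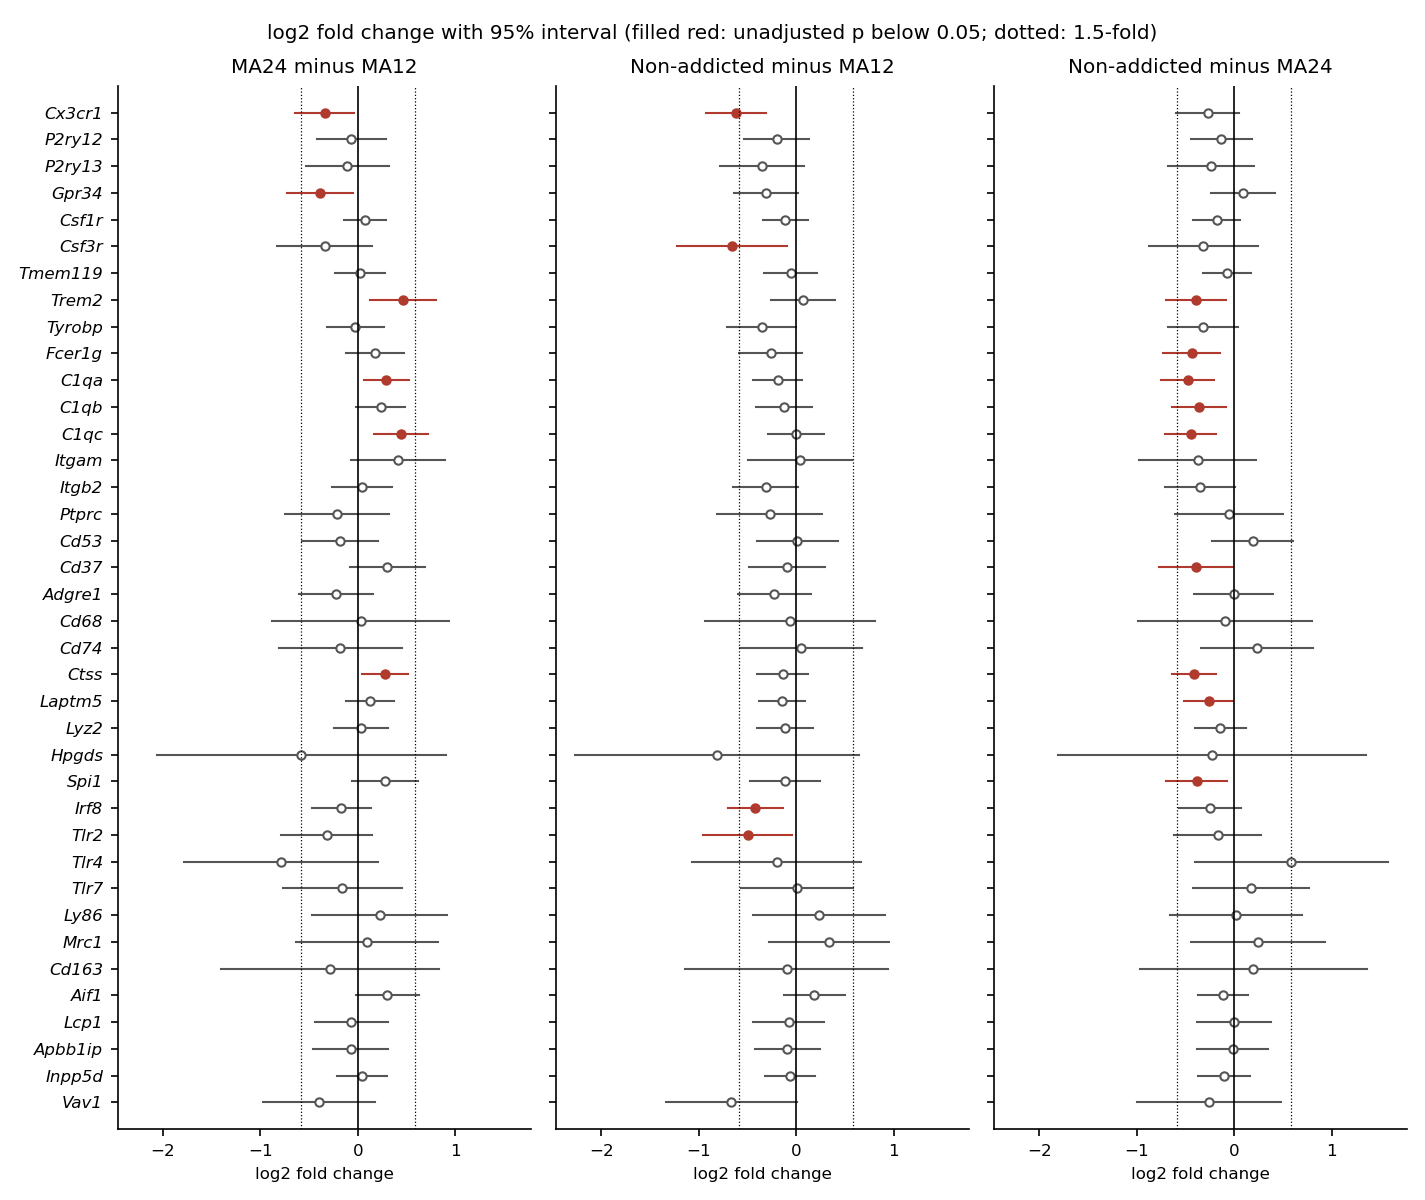
log2 fold change (horizontal axes) of the 38 tested genes with 95% intervals in MA24 vs. MA12, non-addicted vs. MA12 and non-addicted vs. MA24, with filled red points for an unadjusted p below 0.05 and dotted lines at a 1.5-fold change. The right panel has 9 red points, all left of 0, the middle panel 4, all left of 0, and the left panel 6, with 4 right of 0.

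The pattern receptors and the surface proteins of leukocytes gave smaller or less precise differences. Tlr2, the receptor for bacterial lipoproteins, lay at 6.61, 7.40, 8.98 and 4.80 CPM in MA12, at 5.51, 5.37, 7.04 and 4.33 CPM in MA24, and at 3.80, 5.28, 5.41 and 5.31 CPM in the non-addicted rats. Rat 7N again lay below the other MA12 rats, and the log2 fold change in non-addicted vs. MA12 was -0.49 (SE 0.22, adjusted p = 0.359). The study lists Tlr2 in a protein network built from its DEGs against the saline group, which was not analysed here. Tlr4, the receptor for lipopolysaccharide, had 22, 22, 27 and 21 counts in MA12, 9, 11, 13 and 17 in MA24, and 13, 21, 24 and 20 in the non-addicted rats. The MA24 rats lay below all MA12 rats, but with so few counts the log2 fold change of -0.79 had a 95% interval from -1.78 to 0.21 (adjusted p = 0.323). Tlr7 and the MD-1 gene Ly86 had unadjusted p-values above 0.05 in all 3 comparisons.

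Itgam encodes CD11b, the integrin by which microglia are commonly stained. It lay at 7.20, 9.94, 8.47 and 11.7 CPM in MA12, at 13.9, 6.16, 13.6 and 16.0 CPM in MA24, and at 4.17, 12.0, 9.14 and 13.1 CPM in the non-addicted rats. The spread within the groups was large, with a 3.85-fold span over the 12 rats, and MA24 vs. MA12 gave a log2 fold change of 0.41 (SE 0.23, adjusted p = 0.28). Cd53, a tetraspanin of leukocytes, lay at 6.99, 7.02, 5.93 and 5.98 CPM in MA12, at 5.76, 5.92, 5.80 and 5.38 CPM in MA24, and at 5.36, 5.23, 7.83 and 7.70 CPM in the non-addicted rats. Its MA24 and MA12 ranges missed each other by less than 0.05 CPM, and the log2 fold change was -0.18 (SE 0.19, adjusted p = 0.584). Cd37, another tetraspanin, was at 6.42 ± 0.842, 7.91 ± 0.994 and 6.03 ± 0.612 CPM, with -0.39 in non-addicted vs. MA24 (adjusted p = 0.263). The integrin chain Itgb2, the phosphatase Ptprc (CD45) and Adgre1 (F4/80) had unadjusted p-values above 0.05 in all 3 comparisons.

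The mannose receptor Mrc1, a marker of macrophages at the borders of the brain, lay at 1.64, 2.17, 1.69 and 2.37 CPM in MA12, at 2.02, 3.40, 1.64 and 1.32 CPM in MA24, and at 2.76, 2.42, 2.79 and 1.98 CPM in the non-addicted rats. Its log2 fold changes of 0.34 in non-addicted vs. MA12 and 0.24 in non-addicted vs. MA24 had adjusted p-values of 0.693 and 0.718. Cd163 had 6 to 22 counts per library and overlapped in all comparisons. Aif1 encodes IBA1, the actin-binding protein most used to stain microglia. It lay at 17.5, 20.4, 12.1 and 13.4 CPM in MA12, at 16.8, 19.6, 19.9 and 22.0 CPM in MA24, and at 17.3, 19.0, 17.8 and 18.3 CPM in the non-addicted rats. The MA12 rats spanned the range of nearly all others, and the log2 fold change was 0.30 in MA24 vs. MA12 (SE 0.16, adjusted p = 0.247) and -0.12 in non-addicted vs. MA24 (adjusted p = 0.638). The actin and signalling genes Lcp1, Apbb1ip, Inpp5d and Vav1 had unadjusted p-values above 0.05 in all 3 comparisons.

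The cytokines were near the limit of detection. Il1b, which encodes interleukin-1β, had 0, 1, 0 and 1 counts in MA12, 3, 0, 1 and 1 in MA24, and 4, 2, 11 and 8 in the non-addicted rats. The non-addicted rats lay above all MA12 rats (two-sided exact permutation p = 0.0286, the smallest that 4 against 4 allows) and overlapped with MA24 at rats 9N and 11 (exact permutation p = 0.0571). The totals of 25, 2 and 5 counts gave a ratio of 13.0 for non-addicted to MA12, with an exact 95% interval from 3.25 to 114, and of 4.93 for non-addicted to MA24, from 1.85 to 16.5, both covering counting error only. Il1b was below the filter on low counts, and with no filter the edgeR quasi-likelihood test gave adjusted p = 0.186 against MA12 and adjusted p = 0.239 against MA24. The 8 neutrophil markers summed to 5 to 32 counts in MA12, 10 to 29 in MA24 and 39 to 54 in the non-addicted rats, or 0.235 to 1.34, 0.493 to 1.49 and 1.80 to 2.81 CPM. S100a8 and S100a9, which encode the subunits of calprotectin, held 143 of the 186 counts in the non-addicted rats. S100a8 had at most 2 counts in any MA12 or MA24 rat and 5, 8, 9 and 12 in the non-addicted rats, and S100a9 had 3 to 21 counts in MA12, 5 to 17 in MA24 and 20 to 39 in the non-addicted rats. The other 6 markers summed to 1 to 11, 3 to 11 and 3 to 15 counts per rat with overlap of all groups, and the granule protease gene Elane was at 0 in 11 of the 12 libraries. The part of these cells in the Il1b counts was not tested. Ccl2 had 0, 8, 0 and 0 counts in MA12, 6, 1, 0 and 0 in MA24, and 0, 4, 0 and 10 in the non-addicted rats. Ccl3 had 1, 1, 0 and 3, then 5, 2, 1 and 2, then 0, 0, 0 and 1 counts. Its direction in non-addicted vs. MA24 was opposite to that of Il1b, lower in the non-addicted rats (exact permutation p = 0.0571). With no filter, the edgeR quasi-likelihood test gave adjusted p = 0.274 for Ccl3 in that comparison. Tnf had 1 count in all 12 libraries together. A count of 0 allows up to 3 counts, or 0.123 to 0.169 CPM in these libraries.

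Genes of the same pathways outside the list gave no DEG in any comparison by the edgeR quasi-likelihood test. DESeq2 and the likelihood ratio test each called 1, 0 and 2 of them, Cfb (complement factor B) higher in MA24 than in MA12, and Ch25h and Lpl higher in the non-addicted rats than in MA24. Of 93 such genes with a row, 76, 78 and 77 were tested in MA24 vs. MA12, non-addicted vs. MA12 and non-addicted vs. MA24. At an unadjusted p below 0.05, 7, 12 and 10 of them passed, or 9.2%, 15.4% and 13.0% against 23.6%, 12.3% and 17.5% of all genes, with median log2 fold changes of 0.013, -0.11 and -0.11. The microglial identity genes (P2ry6, Selplg and others) had 9 of 14, 11 of 14 and 10 of 14 below 0, and the Fc receptor and ITAM signalling genes (Fcgr1a, Syk, Btk and others) 6 of 12, 10 of 12 and 10 of 12. Of the complement genes outside C1q, 2 of 11 passed the unadjusted threshold upward and 1 downward in MA24 vs. MA12, 2 upward in non-addicted vs. MA12, and 1 downward in non-addicted vs. MA24. Among all genes tested, 10.5% passed upward and 13.1% downward in MA24 vs. MA12, and 8.16% downward in non-addicted vs. MA24. The Toll-like receptor signalling genes had medians of 0.051, 0.047 and -0.034, and the genes of the NADPH oxidase and phagosome 0.035, -0.12 and -0.078. The ligands of microglial receptors (Csf1, Il34, Cx3cl1 and others) had 5 of 8 genes tested, with medians of -0.023, -0.17 and 0.16. The disease-associated microglia genes had medians of 0.0017, -0.066 and -0.099, with Cst7 and Clec7a at a mean count of 4 or less. Among 15 further inflammasome and cytokine genes, 8 were tested, Il10 was at 0 in every library, and Il6, Ccl4, Ccl5, Ccl7, Il1rn and Nos2 were at a mean count of 4 or less.

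Markers of vessels were lower in the non-addicted rats, with medians farther from 0 than those of the microglial genes. All 8 endothelial markers had a log2 fold change below 0 against MA12 (median -0.39, 5 at an unadjusted p below 0.05) and against MA24 (median -0.39, 7 at an unadjusted p below 0.05), with Kdr a DEG in the former and Kdr and Cldn5 in the latter. Their summed level was 433 to 557 CPM in MA12, 511 to 564 CPM in MA24 and 322 to 456 CPM in the non-addicted rats, with rat 9 lowest. All 9 tested mural and fibroblast markers were below 0 as well (median -0.56 against MA12 and -0.38 against MA24), with Abcc9 and Acta2 DEGs in the former, and their sum was 153 to 224, 139 to 170 and 105 to 136 CPM in MA12, MA24 and non-addicted rats. In MA24 vs. MA12, the mural markers Rgs5 and Abcc9 were lower DEGs. The 8 oligodendrocyte lineage markers had medians of 0.16 in MA24 vs. MA12, -0.17 in non-addicted vs. MA12 and -0.36 in non-addicted vs. MA24, with 6 of 8 lower at an unadjusted p below 0.05 in the last. At this threshold, 7.03% of all genes tested were lower in non-addicted vs. MA12 and 8.16% in non-addicted vs. MA24. The part of differences in tissue makeup in the microglial values was not tested.

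**Figure D4:**
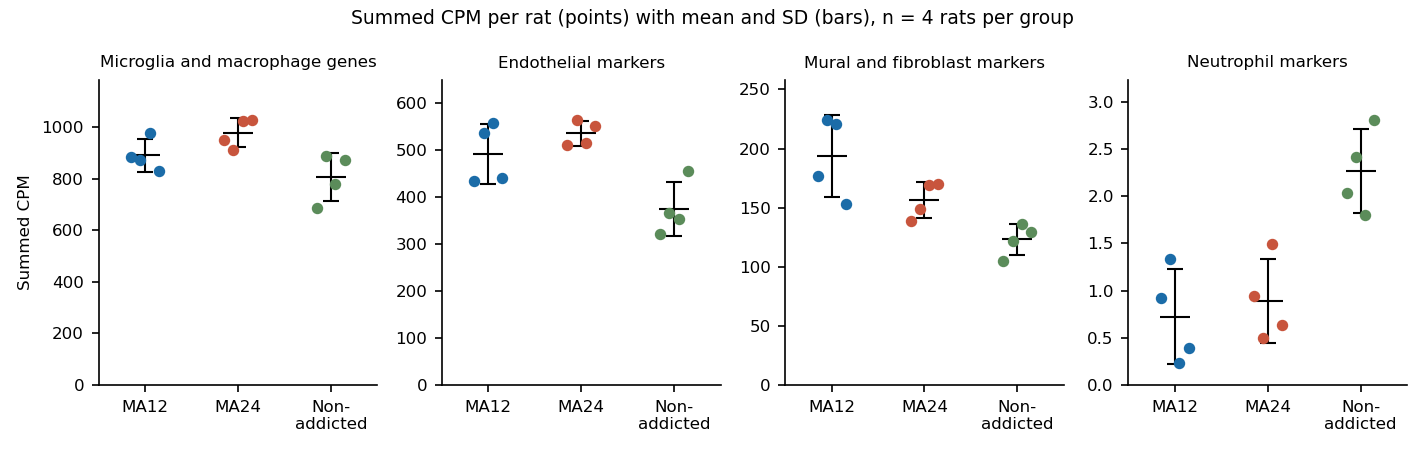
Summed CPM per rat (vertical axes, each from 0) of the 42 microglia and macrophage genes and of the endothelial, mural and fibroblast, and neutrophil markers, with points for rats, horizontal bars for group means and whiskers for the SD (n = 4 per group). The non-addicted rats lie lowest on average in the first 3 panels and above all other rats in the neutrophil panel, where the highest sum is 2.81 CPM.

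The astrocyte markers had medians of -0.12, -0.063 and 0.045 in the 3 comparisons, with Slc1a2 a lower DEG in MA24 vs. MA12. The striatal projection neuron markers had medians of -0.071, -0.057 and -0.11, with Pdyn a lower DEG in non-addicted vs. MA12. The erythrocyte markers summed to 104 to 199 CPM over the 12 rats with overlap of all groups. Summed monocyte markers overlapped in all groups (69.4 to 107 CPM). Of these markers, Ccr2 and Chil3 had no row and Ly6c had a mean count of 4 or less. The sum therefore rests on Vcan, Fn1 and Plac8, and whether it came from monocytes was not tested. Further border macrophage markers also overlapped in all groups (3.74 to 8.04 CPM). T and NK cell markers were at 3.62 to 4.72 CPM in MA12, 3.80 to 5.75 CPM in MA24 and 2.42 to 3.80 CPM in the non-addicted rats. Of these 9 markers, only the T cell genes Cd3e and Lck were tested. Klrb1 was at 0 in every library and the other 6 had a mean count of 4 or less. The medians of 0.15, -0.55 and -0.70 in the 3 comparisons are means of these 2 genes. The genes went in opposite directions in MA24 vs. MA12 and in non-addicted vs. MA12. In non-addicted vs. MA12, Lck had a log2 fold change of -1.34 (adjusted p = 0.153), with all non-addicted rats below the MA12 rats, while Cd3e had 0.24. B cell markers stayed at or below 0.533 CPM.

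The precision of the data sets what a missing DEG can mean. The 95% interval of the log2 fold change had a median half-width of 0.36 in each comparison. It reached a 1.5-fold change in either direction for 21 of 38 genes in MA24 vs. MA12, 18 in non-addicted vs. MA12 and 26 in non-addicted vs. MA24, so for these genes a change of that size could be neither shown nor dismissed with 4 rats a group. For the 21 genes with a mean count of at least 200, the widest half-width was 0.48, 0.54 and 0.60 in the 3 comparisons.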

How the data were processed

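RNA was extracted from the whole striatum, and poly-A libraries were made with the TruSeq RNA kit v2, per the methods of the study. The authors used Cutadapt 1.18 for trimming and STAR 2.7.0e for alignment to rn6, and deposited raw counts per gene, without normalization. featureCounts is named as the counter in the methods, and the submitters' processing notes also list HTSeq 0.12.4. Settings for strand and for reads with several positions are not given in the sources used here, so reads shared with overlapping or near-identical genes cannot be assigned with certainty. All 12 columns were used.

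The 42 genes, their roles and the pathway and marker lists were chosen with earlier results of these data known. For each comparison, a gene was tested if its 8 libraries averaged over 4 counts and its variance of log2 CPM (prior count 2) was not among the lowest 15%, a step that took out none of the 42 genes but some genes of the pathway and marker lists. Counts were scaled by TMM and tested with glmQLFit and glmQLFTest (edgeR 4.0.16, R 4.3.3), with p-values adjusted by Benjamini-Hochberg over all genes tested. Single genes were also compared by two-sided exact permutation tests over 70 splits (scipy 1.17.1). Each rat gave 1 library, so the spread is between animals. The fit was tested on simulated counts with a 2-fold change in 200 genes of a mean count of at least 50. It recovered 93.0%, 91.0% and 89.5% of them in MA24 vs. MA12, non-addicted vs. MA12 and non-addicted vs. MA24. Smaller changes and genes with fewer counts were not simulated, so this says nothing about them. A gene of the pathway lists is not reported here, and the counts over those lists leave it out. Values in every rat are given for genes that were DEGs or did not overlap in any comparison and for the first listed gene of each role. C1qb, the counts of Ccl2 and Ccl3 and the p-values of Ccl3 were added after their values were seen. So were the pathway genes Cfb, Ch25h and Lpl, the neutrophil genes S100a8, S100a9 and Elane, and the T cell genes Cd3e and Lck. Likewise, the means of Gpr34, Csf3r, Trem2, Tyrobp, Tmem119, Laptm5 and Cd37 were added after they were seen. Alternatives were DESeq2 1.42.0, the likelihood ratio test, RLE size factors, 3 other filters, all 3 groups in one fit, unadjusted p-values, leaving out each rat, and the kind of rat number.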

Additional observations from a re-analysis of the deposited data

Results flagged for a closer look

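In each group of 4 rats, the gap of the highest or lowest rat to its neighbour was divided by the range of the group and compared with Dixon's 95% critical value. Of 42 sets of 4 rats examined, 5 had a rat past it, where chance gives about 2.1. Cx3cr1 in MA12 had rat 7N lowest (gap 0.912 of the range), at 24.3 CPM against 35.2 to 36.5 CPM in the other rats, or 430 against 775 to 849 counts. C1qa in MA12 had rat 4N highest (0.835), at 96.3 CPM against 78.9 to 81.5 CPM. Cd68 in MA24 had rat 9N lowest (0.912), with 15 counts against 26 to 27. Tlr2 in the non-addicted rats had rat 9 lowest (0.928), at 3.80 CPM against 5.28 to 5.41 CPM, or 73 counts against 102 to 132. Tlr4 in the non-addicted rats had rat 9 lowest (0.867), at 0.677 CPM against 0.984 to 1.04 CPM, or 13 counts against 20 to 24.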

How the results depend on the processing

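The number of microglia and macrophage DEGs was 0 in most fits. In non-addicted vs. MA12 it was 1 with DESeq2, in the likelihood ratio test and among rats numbered without N (Cx3cr1 each time), and 2 with unadjusted p-values (Cx3cr1 and Csf3r). Leaving out each rat in turn gave 0 to 1 in MA24 vs. MA12 (1 being C1qc, without MA12 rat 4N), 0 to 1 in non-addicted vs. MA12 (1 being Cx3cr1, without MA12 rat 7N) and 0 to 0 in non-addicted vs. MA24. The median log2 fold change ran from -0.054 to 0.027, from -0.17 to -0.068 and from -0.22 to -0.13 in these fits. No named gene past an unadjusted p below 0.05 changed direction in any alternative, with 17, 17 and 15 alternative fits of the 3 comparisons. These genes were picked by the main fit, and most alternatives use the same rats, so a change of direction was unlikely from the start. The adjusted p of C1qa in non-addicted vs. MA24 ran from 0.0269 to 0.231, that of C1qc from 0.0385 to 0.247 and that of Ctss from 0.0184 to 0.286, at a fold change below the threshold of 1.5.

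Counts over all genes, which are the background here, moved more. In MA24 vs. MA12, 264 DEGs became 116 among rats numbered with N, 47 with a term for the N in the rat number and 603 with unadjusted p-values, and ran from 129 to 436 when a rat was left out. In non-addicted vs. MA12, 27 became 72 with DESeq2, 87 with the likelihood ratio test, 12 with no filter on counts, 4 with at least 10 counts in every library, 5 with no variance filter, 63 among rats numbered without N, 10 with that term and 300 with unadjusted p-values, and ran from 8 to 93 without single rats. In non-addicted vs. MA24, 49 became 116 with DESeq2, 163 with the likelihood ratio test, 10 with no filter on counts, 0 under a minimum of 10 counts per library, without the variance filter and in 1 fit of the 3 groups, and 438 with unadjusted p-values, and ran from 0 to 187 without single rats. The cause was not tested. The kind of rat number and the group cannot be told apart in non-addicted vs. MA24. No paired analysis was possible because the groups share no replicate numbers that pair the rats.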
